A study of Mus musculus with 8 samples.

Results

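Genes of the mouse p200 family were described in bone marrow-derived macrophages (BMDM) that had, or lacked, the Lyz2-Cre driver beside floxed alleles of Opa1. The members were the 9 gene symbols Aim2, Pydc3, Pydc4, Pyhin1, Mnda, Mndal, Ifi203, Ifi204 and Ifi205, of 24421 symbols counted in all. They were chosen by name from earlier results of the same comparison, so their differences between genotypes are given as a description, with no test. The CKO cells carried OPA1f/f with Lyz2-Cre, which expresses Cre recombinase from the Lyz2 locus in myeloid cells (replicates 2, 6, 7 and 8). The FLOX cells carried OPA1f/f without the driver (replicates 3, 4, 6 and 7). OPA1 is the GTPase by which inner mitochondrial membranes fuse. All 8 libraries were of mouse primary cells given interleukin 4 (IL-4), the cytokine of alternative macrophage activation, for 24 h, so no value describes unstimulated cells. Mouse age, sex and strain are not stated by the labels, and neither is whether each library came from a mouse of its own, so p-values measure the spread between libraries, which may be technical.

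The p200 or PYHIN proteins carry a pyrin domain at the amino-terminal end, which binds other pyrin domains, and HIN domains towards the carboxy-terminal end, which bind DNA. AIM2 is the member that holds cytosolic double-stranded DNA and recruits the adaptor ASC, encoded by Pycard, into an inflammasome that activates caspase-1. The family is known for induction by interferons in myeloid cells, and pyrin-only proteins have a pyrin domain and no HIN domain.

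All 9 members lay on chromosome 1 in a single stretch of 680.9 kb, from 173350879 to 174031810 by the GENCODE M21 annotation (GRCm38, that is mm10). No protein-coding gene outside the family was annotated inside it. In order of position, Aim2 (ENSMUSG00000037860) spans 173350879 to 173466040, Pydc4 (ENSMUSG00000073491, now Ifi213) 173566283 to 173599274 and Pyhin1 (ENSMUSG00000043263, now Ifi209) 173630917 to 173647928. Pydc3 (ENSMUSG00000066677, now Ifi208) follows at 173673675 to 173698395 and Ifi204 (ENSMUSG00000073489) at 173747293 to 173766943. Mndal (ENSMUSG00000090272) spans 173849126 to 173942491, a range that holds Mnda (ENSMUSG00000026536, now Ifi211) at 173896345 to 173913046 and most of Ifi203 (ENSMUSG00000039997) at 173920407 to 173942672. Ifi205 (ENSMUSG00000054203) closes the stretch at 174011998 to 174031810. Aim2, Pyhin1 and Pydc3 are on the plus strand and the other 6 on the minus strand.

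RefSeq promoters (GRCm38.p6, 250 bases before to 50 after the start) were found for 8 of the 9 members, all but Ifi204, with more than 1 start for Mndal and Ifi203. Parts of them are shown because most of these genes carried a like element near a start. The ISRE-like letters GAAANNGAAA, the core of sites bound by interferon-activated factors, were searched on both strands. Of the 8 members with a promoter, 6 held them at a start (Pydc3, Pydc4, Mndal, Ifi203, Mnda and Ifi205), as did 3.99% of all 27025 genes. At the other start of Ifi203 they were absent. The 50 bases around 1 match per gene follow, 5′ to 3′ on the strand of the gene, with the match in capitals. Further matches, TTTCTCTTTC at the other start of Mndal and TTTCACTTTC after the start of Ifi205, are not shown in windows. Pydc4 is at chr1:173599311-173599360 (minus), Pydc3 at chr1:173673592-173673641 (plus), Mndal at chr1:173880189-173880238 (minus) and Mnda at chr1:173913049-173913098 (minus). Ifi203 is at chr1:173942493-173942542 (minus), Ifi205 at chr1:174031855-174031904 (minus) and AI607873, a p200 gene that was not a member, at chr1:173741816-173741865 (minus). The RefSeq start of Mndal lies inside its GENCODE span.
Pydc4: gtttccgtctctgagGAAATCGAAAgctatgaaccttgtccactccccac
Pydc3: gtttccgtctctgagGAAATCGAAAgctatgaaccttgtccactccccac
Mndal: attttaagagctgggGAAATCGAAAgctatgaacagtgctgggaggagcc
Ifi203: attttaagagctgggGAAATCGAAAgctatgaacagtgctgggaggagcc
Mnda: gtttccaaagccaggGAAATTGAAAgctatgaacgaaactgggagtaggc
Ifi205: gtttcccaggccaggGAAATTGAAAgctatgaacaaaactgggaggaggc
AI607873: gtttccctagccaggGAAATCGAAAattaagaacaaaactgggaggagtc

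The other members with a promoter, Aim2 and Pyhin1, held these letters only with 1 mismatch, which 38.9% of all genes held or bettered. Any relation between these letters and the differences between genotypes was not tested. For contrast, 1 such match each is shown in capitals, which for Pyhin1 is, of 4, the one on the gene's strand nearest the start (another in its window, TTTCAATCTC, is left in lower case), at chr1:173420538-173420587 (plus) for Aim2, where the match is on the opposite strand, and at chr1:173630765-173630814 (plus) for Pyhin1.
Aim2: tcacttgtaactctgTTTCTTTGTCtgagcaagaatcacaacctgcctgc
Pyhin1: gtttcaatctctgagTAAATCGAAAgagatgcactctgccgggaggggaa

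The exact letters GAAATCGAAA occurred in 16 of the 32851 promoters, and 5 of the windows above hold them (Pydc4, Pydc3, Mndal, Ifi203 and AI607873). GAAATTGAAA occurred in 38 promoters, among them those of Mnda and Ifi205. The element lay 26 to 35 bases before the start in Ifi203, 27 to 36 in Mndal, 28 to 37 in Mnda, 49 to 58 in Pydc3, 64 to 73 in Pydc4 and 125 to 134 in Ifi205. The promoters are copies of each other in part, so the matches are not independent. The 250 bases before the start were identical between Pydc4 and Pydc3 at 99.1% of 235 aligned bases. At the starts shown, Mndal and Ifi203 were identical at 97.5% of 239, and Mnda and Ifi205 at 93.4% of 151. AI607873 was identical to Mnda at 87.8% of 246 and to Ifi205 at 89.0% of 154. Each member with an exact ISRE-like match is thus in a pair of near copies. The GAS letters TTCNNNGAA were in the promoters of 0 of the 8 members and of 9.55% of all genes. The STAT6-type letters TTCNNNNGAA, the spacing that the IL-4-activated factor STAT6 prefers, were in those of 5 of the 8 (Ifi205, Mnda, Pydc3, Pydc4 and, at its other start, Ifi203) and of 8.01% of all genes. Each match is a match of letters, and binding was not measured.

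Each library held 11764855 to 18939948 read pairs counted in genes. Levels are given as CPM, the read pairs of a gene in 1000000 of the scaled library. Opa1 stood at 94.6, 98.5, 105 and 102 CPM in CKO and at 104, 114, 108 and 130.3 CPM in FLOX. The groups overlapped, with a log2 fold change of -0.19 and an SE of 0.07 (edgeR adjusted p = 0.0544). Counts are per whole gene, so the deleted part of Opa1 was not resolved. Lyz2, the driver locus, averaged 2029 CPM in CKO, with an SD of 250.4, and 7434 CPM in FLOX, with an SD of 597 (n = 4 each), and the groups did not overlap. Effects of deleting Opa1, of Cre or its insertion, and of a batch that no label gives cannot be told apart in this design. The extraction protocol speaks of islets, and all 6 islet markers were at 0 in every library. All 8 macrophage markers were detected, with a summed level of 8729 to 9706 CPM in CKO and 14818 to 15821 CPM in FLOX, Lyz2 included. Most of the gap between these sums was Lyz2, and the other macrophage markers did not share a direction. Csf1r, Cd68 and Mertk were lower in CKO and Fcgr1 was higher, each at an edgeR adjusted p under 0.05. Adgre1, Itgam and Mrc1 did not reach that threshold. FLOX replicates 3 and 6 stood apart from FLOX replicates 4 and 7 across all genes, with a chi-square per degree of freedom of 6.45 and 4.51 inside these pairs and 15.6 to 27.8 between them. CKO replicate 2 stood apart from the other CKO libraries, at 7.42 to 9.63 against 2.45 to 3.05 among replicates 6, 7 and 8.

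The members did not move as a block: the pyrin-only pair was several-fold higher in CKO, 6 PYHIN genes were higher by lesser ratios, and Aim2 was slightly lower. All 9 members passed the filter on low counts, Ifi205 and Pydc4 only through their counts in CKO. By the call used for all genes, an edgeR adjusted p under 0.05, 8 members were higher, beside 23.8% of the 11519 genes tested, and 1 was lower, beside 21.6%. The libraries of the groups did not overlap for any member, with CKO above FLOX for 8 (22.7% of all tested genes) and below it for 1 (20.0%). Since the members were selected on this contrast, nothing is read from these counts. The median log2 fold change was 1.22 over the members and -0.02 over all tested genes. In bulk RNA, fewer cells of a type and less RNA per cell cannot be told apart.

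**Figure D1:**
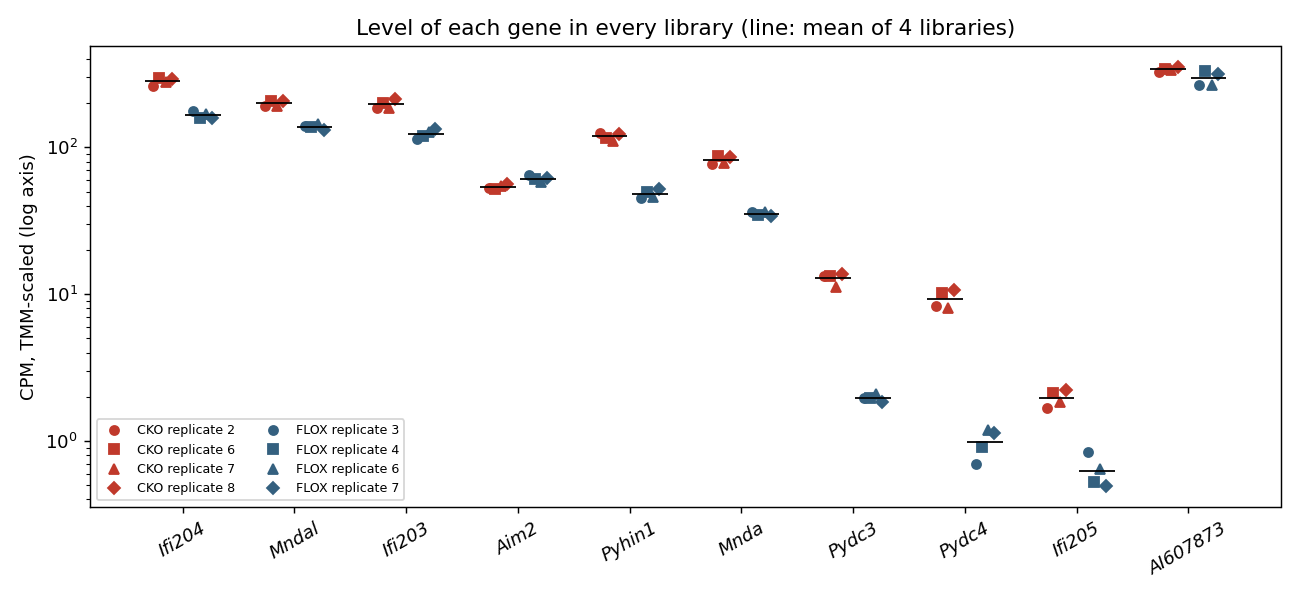
Level of each gene in every library in CPM on a log axis, CKO in red to the left of FLOX in blue, with a line at the mean of 4 libraries. The CKO points lie above the FLOX points for 8 members and below them for Aim2, while those of AI607873 overlap.

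Pydc3 and Pydc4, the pyrin-only genes, had the largest ratios and low levels. Pydc4 stood at 8.29, 10.1, 8.07 and 10.7 CPM in CKO and at 0.701, 0.907, 1.19 and 1.13 CPM in FLOX. The lowest CKO library was thus several times the highest FLOX library, with 99 to 159 read pairs in CKO and 10 to 22 in FLOX. The mean in CKO was 9.47 times that in FLOX, a log2 fold change of 3.22 (SE 0.18), and 16 tested genes had a log2 fold change at least as high, Pydc4 included.

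Pydc3 stood at 13.3, 13.3, 11.2 and 13.8 CPM in CKO and at 1.96, 1.97, 2.10 and 1.84 CPM in FLOX. The libraries of each group lay close together, with a coefficient of variation of 8.96% in CKO and 5.41% in FLOX. The ratio of means was 6.56 and the log2 fold change 2.70 (SE 0.12), which placed Pydc3 at rank 30 of the tested genes. Pydc4 gave 62.3 to 77.6 counts per 100 counts of Pydc3 in CKO and 35.7 to 61.5 in FLOX, ranges that did not overlap but rest on as few as 10 counts of Pydc4 in a FLOX library.

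The longest annotated proteins of the pair have 588 residues (Pydc3) and 586 residues (Pydc4). They were identical at 93.7% of 586 aligned residues, and at 97.8% of the first 90, the pyrin-domain end. Their last 200 residues aligned over at most 44 residues with any other member, whereas the other members aligned with each other there. Of the 100-base words of Pydc3 transcripts 3.22% also occur in Pydc4, and 2.37% of those of Pydc4 occur in Pydc3. Read pairs that lie wholly in such words cannot be assigned to either gene.

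Ifi205 had the lowest mean CPM of the members in both genotypes. In mouse macrophages its product has been linked to the transcription of Pycard. It stood at 1.68, 2.11, 1.85 and 2.22 CPM in CKO and at 0.841, 0.529, 0.648 and 0.497 CPM in FLOX, from 20 to 33 read pairs in CKO and 7 to 12 in FLOX. Even so, the lowest CKO library was above the highest FLOX library. Its mean in CKO was 3.12 times that in FLOX, and its log2 fold change was 1.63 (SE 0.22), 1.93 without FLOX replicates 3 and 6 and 1.42 without FLOX replicates 4 and 7. The spread in FLOX (coefficient of variation 24.8%) was no larger than counting error alone gives at these counts (32.4%).

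Pyhin1, whose human namesake is a nuclear protein linked to growth control, stood at 126, 115, 111 and 123 CPM in CKO and at 45.2, 49.7, 46.1 and 52.1 CPM in FLOX. Every CKO library was far above the highest FLOX library. The log2 fold change of Pyhin1 was 1.30 (SE 0.07), with a ratio of means of 2.46.

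Mnda, named for the human myeloid nuclear differentiation antigen, stood at 76.7, 87.3, 78.2 and 86.2 CPM in CKO and at 36.0, 34.5, 36.2 and 34.1 CPM in FLOX. The FLOX libraries lay within a narrow band, far below the CKO libraries. This gave a ratio of means of 2.33 and a log2 fold change of 1.22 (SE 0.06). Mnda is also the member with the most sequence in common with others: 56.9% of the 100-base words of its transcripts occur in another gene, 37.2% in Ifi205 and 19.6% in Ifi204. The last 200 residues of Mnda and Ifi205 were identical, and the first 90 residues of Mnda and Ifi204 were identical at 98.9%. Read pairs that lie wholly in such sequence cannot be assigned to Mnda alone. The share was 16.9% for Pyhin1, 15.04% for Ifi205, 10.7% for Ifi204 and from 0% to 6.38% for the other members.

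Ifi204, Ifi203 and Mndal were abundant in both genotypes and differed by less. Ifi204, whose product has been linked to DNA responses in mouse macrophages, stood at 261, 296, 279 and 291 CPM in CKO and at 177, 159, 169 and 159 CPM in FLOX. The ratio of means was 1.70 and the log2 fold change 0.76 (SE 0.06), with every CKO library above every FLOX library.

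Ifi203 stood at 185, 199, 185 and 215 CPM in CKO and at 113, 120, 127 and 134 CPM in FLOX. The gap between the groups was wide relative to the spread inside them, with a ratio of means of 1.59 and a log2 fold change of 0.67 (SE 0.07). Mndal, named for its likeness to Mnda, stood at 191, 208, 193 and 206 CPM in CKO and at 139, 137, 143 and 131 CPM in FLOX. Its ratio of means was 1.45 and its log2 fold change 0.54 (SE 0.06), the lowest among the 8 members that stood higher in CKO. Mndal and Ifi203 overlap by 37 exonic bases on the same strand, and their first 90 residues were identical at 94.4%.

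Aim2, the inflammasome sensor, stood at 52.4, 51.8, 54.3 and 56.5 CPM in CKO and at 64.7, 60.6, 58.4 and 61.5 CPM in FLOX. The highest CKO library lay just under the lowest FLOX library. The ratio of means was 0.877 and the log2 fold change -0.19 (SE 0.06). The call of Aim2 was lost when CKO replicate 2, 6 or 7 was left out. Members were chosen on this contrast, so nothing is read from that call. Over the omissions of single libraries the log2 fold change of Aim2 lay between -0.21 and -0.15. Aim2 shared no 100-base word with any other gene, and its first 90 residues were identical to those of the other members and AI607873 at 18.6% to 29.2% of aligned residues.

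**Figure D2:**
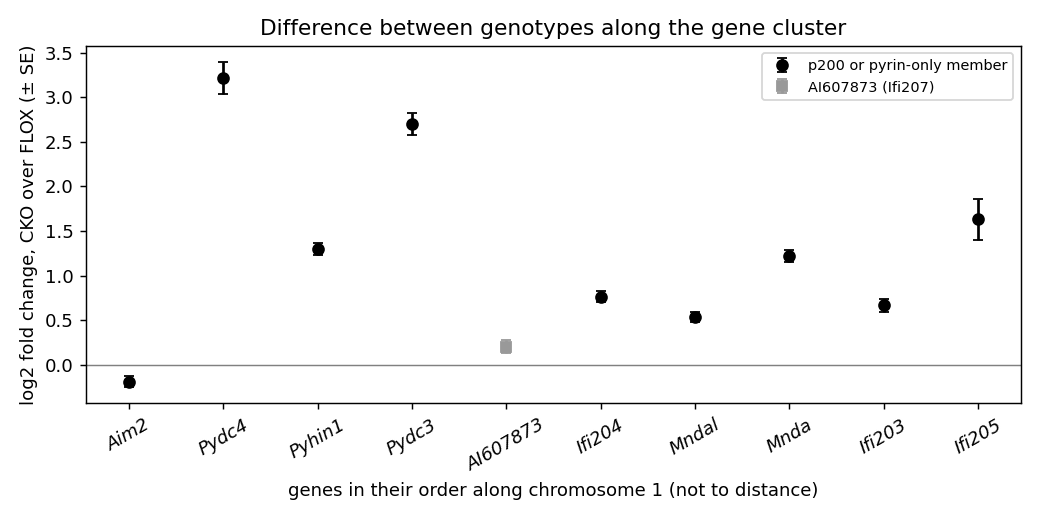
Log2 fold change of CKO over FLOX (± SE) from the fit over all genes, for each gene in its order along chromosome 1, with equal steps between genes. Pydc4 at 3.22 and Pydc3 at 2.70 flank Pyhin1 at 1.30, and Aim2 at -0.19 lies at the low-coordinate end.

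Neighbours on the chromosome differed widely in ratio. Pyhin1 lies between Pydc4 and Pydc3 and had a much lower log2 fold change than either, and AI607873, next to Pydc3, had 0.21. Outside the stretch, the 10 nearest protein-coding genes on each side were all in the files, and 19 of these 20 had 0 counts in every library. None of the 20 was abundant enough to be tested.

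Of 15 other p200 names looked for, 3 were in the files. Names not found include Ifi208, Ifi209, Ifi211 and Ifi213, the current symbols of the members Pydc3, Pyhin1, Mnda and Pydc4. Ifi207, also not found by that name, is AI607873, so a name not found is not always a missing gene. AI607873, now Ifi207, stood at 328, 339, 337 and 353 CPM in CKO and at 266, 329, 267 and 315 CPM in FLOX. Its groups overlapped, since FLOX replicate 4 was above CKO replicate 2. The log2 fold change of 0.21 (SE 0.08) had an edgeR adjusted p = 0.0424, and the gene remained called in 10 of 18 other settings, with adjusted p from 0.000179 to 0.266. Without FLOX replicates 3 and 6 its log2 fold change was 0.07 (edgeR adjusted p = 0.266), and without FLOX replicates 4 and 7 it was 0.35 (edgeR adjusted p = 0.000179). Leaving out CKO replicate 6, 7 or 8, or FLOX replicate 3 or 6, also ended the call, with edgeR adjusted p from 0.0689 to 0.119. BC094916 had 5 to 13 counts in CKO and 1 to 6 in FLOX and was not tested. Ifi202b had 0 counts in all 8 libraries, which allows up to 0.162 to 0.251 CPM (3 counts, counting error only).

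**Figure D3:**
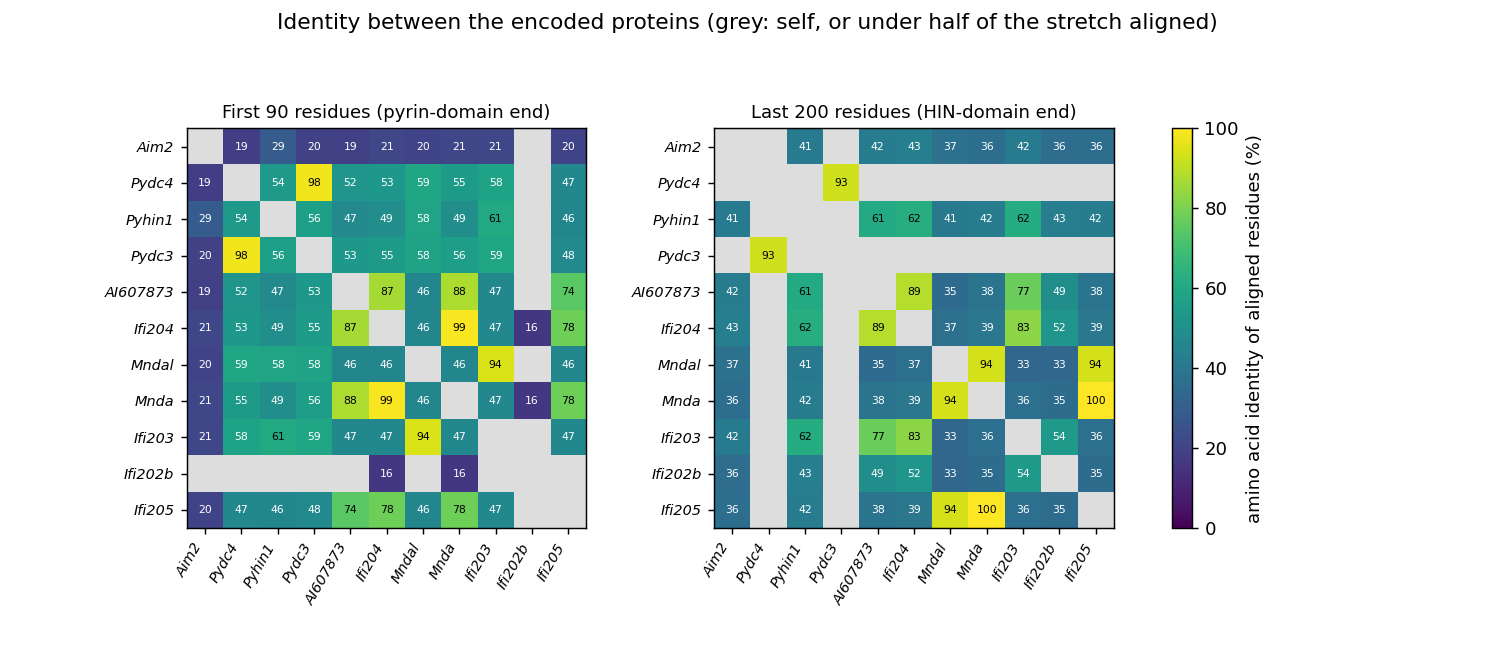
Percentage of identical residues among aligned residues for each pair of p200 proteins, over the first 90 residues (left) and the last 200 residues (right), genes in chromosome order. Grey cells are a protein with itself or pairs that aligned over too little of the stretch, and Pydc3 and Pydc4 have only each other on the right (93%).

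Levels of different genes were compared as CPM per kilobase of merged exon. Ifi204 was the most abundant member in both genotypes, at 79.1 ± 4.34 in CKO and 46.6 ± 2.42 in FLOX (SD, n = 4 each), followed by Mndal at 54.9 ± 2.37 in CKO and 37.9 ± 1.48 in FLOX. In CKO the order went on with Mnda at 46.0 ± 3.02, Pyhin1 at 33.4 ± 1.93, Ifi203 at 29.2 ± 2.13, Aim2 at 15.4 ± 0.606, Pydc3 at 2.46 ± 0.220, Pydc4 at 1.36 ± 0.193 and Ifi205 at 0.470 ± 0.0593. Only Pyhin1 and Ifi203 overlapped among these neighbours. In FLOX, Mnda at 19.7 ± 0.586, Ifi203 at 18.4 ± 1.34 and Aim2 at 17.5 ± 0.738 came next with neighbours that overlapped, then Pyhin1 at 13.6 ± 0.896 and Pydc3 at 0.374 ± 0.0203. Ifi205 at 0.150 ± 0.0373 and Pydc4 at 0.144 ± 0.0327 came last in FLOX and overlapped. Pyhin1 thus stood above Aim2 in CKO and below it in FLOX, and Pydc4 stood above Ifi205 in CKO and did not differ from it beyond the spread in FLOX. With the longest annotated transcript as length, Ifi203 stood at 52.2 ± 3.81 in CKO, above Mnda at 46.0 ± 3.02. The order rests on GENCODE M21 lengths, since the sources used here do not give the gene models used for counting.

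The family as a whole gave 1244 to 1357 CPM in CKO and 845 to 892 CPM in FLOX, and its make-up differed between the genotypes. AI607873 gave 26.2% ± 0.484 of the family's counts in CKO and 33.8% ± 2.79 in FLOX (SD, n = 4 each). Aim2 gave 4.15% ± 0.170 in CKO and 7.06% ± 0.404 in FLOX. These were the parts of the family whose share was smaller in CKO with no overlap between the groups. The share of Pyhin1 was 9.16% ± 0.643 in CKO and 5.55% ± 0.218 in FLOX, and that of Mnda was 6.33% ± 0.193 in CKO and 4.05% ± 0.237 in FLOX. Pydc3 and Pydc4 together remained a minor part, at 0.996% ± 0.0760 and 0.716% ± 0.0730 in CKO against 0.227% ± 0.0172 and 0.113% ± 0.0254 in FLOX. Mndal kept a like share, at 15.4% ± 0.238 in CKO and 15.8% ± 1.02 in FLOX, with ranges that overlapped. Against Ifi204, Mnda gave 28.0 to 29.7 counts per 100 in CKO and 20.4 to 21.7 in FLOX.

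**Figure D4:**
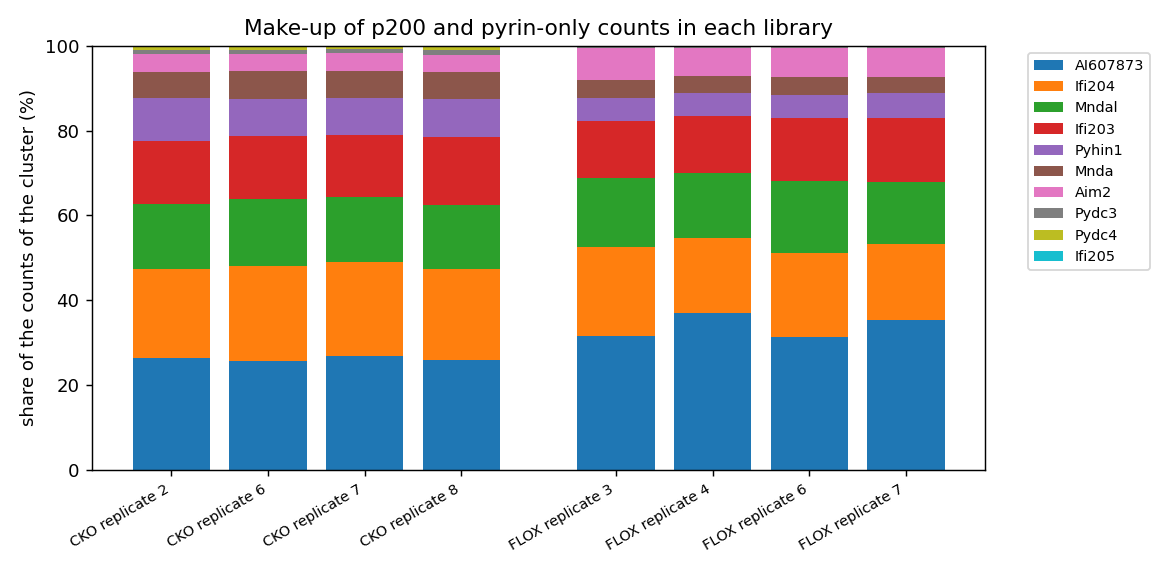
Share of each gene in the counts of the p200 cluster, in percent, for the 4 CKO libraries (left) and the 4 FLOX libraries (right). Aim2 and AI607873 take a smaller share in every CKO library, and Pyhin1 and Mnda a larger one, than in any FLOX library.

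The genes that act with the members were mixed in direction. Of 10 inflammasome partners of AIM2, 9 were in the files and 7 were tested. Of these 7, 2 rose, 3 fell and 2 passed in neither direction, beside 23.8% of all tested genes called higher and 21.6% called lower. The median log2 fold change was -0.04, beside -0.02 over all tested genes. Il18, a cytokine that caspase-1 processes, rose to 7.49 ± 0.605 CPM in CKO, against 5.11 ± 0.719 CPM in FLOX (SD, n = 4 each; log2 fold change 0.54, edgeR adjusted p = 0.00316). Casp8 rose to 114 ± 1.03 CPM in CKO, against 99.5 ± 4.34 CPM in FLOX (log2 fold change 0.20, edgeR adjusted p = 0.00932). Ninj1, which ruptures the plasma membrane in lytic death, fell to 78.3 ± 9.53 CPM in CKO, against 103 ± 9.83 CPM in FLOX (log2 fold change -0.39, edgeR adjusted p = 0.00377). Gsdmd, the pore-forming substrate of the inflammatory caspases, fell to 97.0 ± 6.77 CPM in CKO, against 115 ± 11.9 CPM in FLOX (log2 fold change -0.25, edgeR adjusted p = 0.0222). The third gene that fell was Casp4 (log2 fold change -0.25, edgeR adjusted p = 0.0279), named with its value known. The adaptor Pycard had a log2 fold change of -0.04 (edgeR adjusted p = 0.694) and Casp1 one of -0.02 (edgeR adjusted p = 0.825). Il1a and Il1b had at most 7 counts in a library and were not tested. Without CKO replicate 6, or without CKO replicate 8, the number of partners called lower was 1.

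Of 15 names of cytosolic DNA sensing, 13 were in the files and tested, all but Cgas and Sting1, other names of Mb21d1 and Tmem173. Of these 13, 4 rose, 6 fell and 3 passed in neither direction, beside 23.8% of all tested genes called higher and 21.6% called lower. The median log2 fold change was -0.18. Mb21d1, which encodes the DNA sensor cGAS, rose to 41.8 ± 4.97 CPM in CKO, against 18.0 ± 1.54 CPM in FLOX (SD, n = 4 each; log2 fold change 1.22, edgeR adjusted p = 1.63e-06). Zbp1, a sensor of left-handed nucleic acids, rose to 46.1 ± 2.64 CPM in CKO, against 24.3 ± 2.85 CPM in FLOX (log2 fold change 0.92, edgeR adjusted p = 4.94e-06). Hmgb1, a chromatin protein that also binds DNA outside the nucleus, rose to 326 ± 18.2 CPM in CKO, against 230.0 ± 23.1 CPM in FLOX (log2 fold change 0.50, edgeR adjusted p = 0.000188). Trex1, a cytosolic exonuclease, had the lowest of the 4 log2 fold changes, at 0.39. Dnase2a, the lysosomal nuclease, fell to 157 ± 15.7 CPM in CKO, against 241 ± 17.5 CPM in FLOX (log2 fold change -0.61, edgeR adjusted p = 4.88e-05). Tmem173, which encodes the cGAS partner STING, and its kinase Tbk1 both fell by 0.27 on the log2 scale. Ikbke, Samhd1 and Tmem203 also fell, and Ddx41, Irf3 and Trim56 passed in neither direction.

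Interferon signalling genes are given because interferons are known inducers of the family. Of 17 listed, 16 were tested, and the median of their log2 fold changes was -0.10. Of these 16, 5 rose, 6 fell and 5 passed in neither direction, beside 23.8% of all tested genes called higher and 21.6% called lower. Irf7, which drives transcription of type I interferon genes, rose to 213 ± 9.41 CPM in CKO, against 62.4 ± 4.21 CPM in FLOX (SD, n = 4 each; log2 fold change 1.77, edgeR adjusted p = 1.4e-08). Stat2, a signal transducer of the type I interferon receptor, rose to 194 ± 16.9 CPM in CKO, against 111 ± 13.5 CPM in FLOX (log2 fold change 0.81, edgeR adjusted p = 1.64e-05). The log2 fold change of Irf9, the DNA-binding partner of Stat2 in the complex that binds ISRE sites, was 0.34. Usp18, which restrains the type I interferon receptor, rose by a log2 fold change of 0.61 (edgeR adjusted p = 9.34e-06). The receptor genes Ifnar1 and Ifnar2 had log2 fold changes of -0.10 and -0.09 and did not pass, nor did Ifngr1, Jak2 and Socs1. Ifnb1 had at most 1 count in a library. Irf8 (log2 fold change -0.64, edgeR adjusted p = 4.98e-05) and Irf1 (-0.58) were among the genes that fell, with Ifngr2, Jak1, Tyk2 and Irf2. Without CKO replicate 6, or without CKO replicate 7, the number of genes called lower was 3.

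Markers of other cell types were read beside these values. The 4 monocyte markers summed to 68.3 to 86.5 CPM in CKO and 30.6 to 38.2 CPM in FLOX, most of it Ccr2. The 7 neutrophil and precursor markers in the files summed to 119 to 149 CPM in CKO and 217 to 313 CPM in FLOX, with Elane at 0. Nearly all of this sum was Csf3r, with means of 129 CPM in CKO against 268 CPM in FLOX, whereas the granule gene Ngp averaged 1.22 CPM in CKO and 0.300 CPM in FLOX (edgeR adjusted p = 0.000971). S100a9 likewise averaged 3.11 CPM in CKO and 1.03 CPM in FLOX (edgeR adjusted p = 0.00183), so the list did not move in 1 direction. The 5 stromal and endothelial markers summed to 11.9 to 14.5 CPM in CKO and 7.64 to 8.996 CPM in FLOX. The monocyte and stromal sums, and the low B cell sum, were higher in every CKO library than in any FLOX library. The part of any of these cells in the values of the members was not tested. The 5 T and NK cell markers summed to at most 0.246 CPM in CKO and 0.151 CPM in FLOX, with Cd3e, Cd3g and Ncr1 at 0. The 4 B cell markers summed to 1.35 to 1.91 CPM in CKO and 0.497 to 1.24 CPM in FLOX. The 4 mast cell and basophil markers summed to at most 1.01 CPM in CKO and 0.851 CPM in FLOX, and the 5 dendritic cell markers to at most 2.65 CPM in CKO and 2.00 CPM in FLOX.

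CKO replicate 2 had the lowest level of Ifi204, Ifi205 and Mnda of its group and the highest of Pyhin1. Without it the log2 fold changes were 0.82, 1.71, 1.28 and 1.29 for these 4 genes. It was also the lowest, by a narrow margin, for Ifi203 and Mndal, whose log2 fold changes without it were 0.72 and 0.58. Within genotypes, the mean of the 9 members moved little, from -0.08 to 0.10 log2 units in CKO libraries and from -0.04 to 0.05 in FLOX libraries around the group means. Among the genes most like this mean over the 8 libraries, after centring within each genotype, were Fam160b2 (Pearson r 0.96), Crim1 (0.95), Kansl2 (0.93) and Bysl (0.93), of 8989 genes compared. With 8 libraries and this many genes, such values are a description of these libraries.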

How the data were processed

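Alignment was by HISAT2 2.0.5 to the mm10 build and counting by HTSeq, per the submitters' processing notes. The version of HTSeq, the strand setting and the annotation are not given here, so overlapping, antisense and near-identical genes are uncertain. The deposited values are raw whole-number counts by gene symbol, with 1 file for each library and 66.3% to 71.7% of read pairs assigned; unassigned classes (pairs in no gene 6.52% to 9.60%, low quality 12.2% to 18.0%, not unique 5.03% to 6.01%, ambiguous 1.56% to 1.69%, not aligned 0.819% to 1.19%) stayed out of library sizes and tests. A table of the whole series, in which 27 gene names had changed, was not used.

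In edgeR 4.0.16 (R 4.3.3), genes were filtered with filterByExpr (minimum count 10, minimum total 15), which left 11519. The quasi-likelihood F test (TMM factors, robust) compared CKO with FLOX, with Benjamini-Hochberg adjustment over all tested genes and calls at 0.05. Each SE was computed from the fold change and its F value. CPM use TMM-scaled library sizes. The steps were tested on simulated data. Alternatives used other scalings, filters, DESeq2 1.42.0, limma-voom (limma 3.58.1), omitted libraries and a replicate block.

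Members and gene lists were chosen with earlier results of these data known, so members carry no p-value. Named genes were the members, other p200 genes, Opa1, Lyz2, the 4 or fewer genes per list with the smallest p, and the 5 genes most like the members' mean among those of mean log2 CPM of at least 3; others were named with their values known, and some items are not reported here. Positions and proteins (longest annotated, aligned in Biopython 1.88 with BLOSUM62) came from GENCODE M21 and promoters from RefSeq GRCm38.p6. All pairs of libraries within a group differed by more than sampling noise (chi-square over degrees of freedom, 2.45 to 27.8).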

Additional observations from a re-analysis of the deposited data

How the results depend on the processing

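Over 18 other settings the log2 fold changes of the members, which were chosen on this contrast, ran from 2.97 to 3.41 for Pydc4, 2.63 to 2.79 for Pydc3, 1.42 to 1.93 for Ifi205, 1.20 to 1.37 for Pyhin1, 1.18 to 1.29 for Mnda, 0.70 to 0.83 for Ifi204, 0.56 to 0.73 for Ifi203, 0.49 to 0.60 for Mndal and -0.21 to -0.15 for Aim2. Leaving out single libraries gave 0 to 1 members called lower, from which nothing is read, and 0 to 1 other p200 genes called higher. It also gave 1 to 3 inflammasome partners called lower and 3 to 6 interferon genes called lower. Without both CKO replicate 2 and FLOX replicate 6, 0 members were called lower and 0 other p200 genes higher. The last count was 2 with no filter on low counts, 0 without FLOX replicates 3 and 6 together and 2 without FLOX replicates 4 and 7 together, both chosen after seeing the data. With the replicate number as a block, 1518 of all genes were called lower against 2492, 0 members lower, 0 other p200 genes higher, 0 inflammasome partners higher and 1 lower, and 2 DNA sensing genes lower. Numbers 6 and 7 occur in both groups, and same-numbered libraries correlated at 0.14 and -0.07 over genes. Pairs with different numbers gave -0.30 to 0.24, and the labels do not say what the numbers mean. Whether the numbers mark a shared block was not settled by these values. With the longest transcript as length, the ranks in FLOX were 3 for Ifi203 (4 with merged exons), 4 for Aim2 (5), 5 for Mnda (3), 8 for Pydc4 (9) and 9 for Ifi205 (8). With 50-base words 8 members shared over 10% of their words with another gene and with 150-base words 2, against 4 with 100-base words. The causes were not tested. Depth limits Ifi205 and Pydc4 most, with as few as 7 and 10 read pairs in a FLOX library.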

Other observations

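The FLOX libraries that stood apart across all genes also differed inside the family, and not in the same direction for each gene. In FLOX replicates 3 and 6, Ifi204 stood at 177 and 169 CPM and Mnda at 36.0 and 36.2 CPM, whereas FLOX replicates 4 and 7 had 159 and 159 CPM of Ifi204 and 34.5 and 34.1 CPM of Mnda. AI607873 went the other way, at 266 and 267 CPM in FLOX replicates 3 and 6 and 329 and 315 CPM in FLOX replicates 4 and 7, as did Pyhin1 at 45.2 and 46.1 CPM against 49.7 and 52.1 CPM. These differences were not tested, and the labels give no batch for these libraries.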
